A study of Mus musculus with 2 samples.

Results

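Accessible sites that were called strongly after R848, had no counterpart in untreated cells and lay away from the ends of protein-coding genes were examined in mouse bone marrow-derived macrophages. Such a site, called an R848-only distal peak here, was an R848 peak on chromosomes 1 to 19 with a −log10 q of at least 3, where q is the false discovery rate given by the peak caller. No untreated peak shared 1 bp with it, and it did not touch the stretch within 1 kb of either end of a protein-coding RefSeq gene. There were 2185 of them among the 37725 R848 peaks. The R848 group was 1 library of wild-type macrophages grown from bone marrow with 20 ng/ml M-CSF and given R848 at 100 ng/ml for 2 h. The untreated group was 1 library of wild-type macrophages grown the same way, without R848 (0 h). The labels give no strain, age, sex or number of animals. The untreated list held 77060 peaks. With 1 library a group there was no replicate error and no test, so "R848-only" describes what was called in these libraries.

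R848 (resiquimod) is a small agonist of Toll-like receptor 7, an endosomal sensor of single-stranded RNA that signals through MyD88 to NF-kB and the MAP kinases. ATAC-seq finds open chromatin by the places where the Tn5 transposase can insert adapters. Enhancers are stretches of regulatory DNA away from promoters, often inside introns or between genes. In macrophages they are bound by the lineage factor PU.1 together with C/EBP and AP-1 factors, and signal-dependent factors such as NF-kB act on them during a Toll-like receptor response. An accessible site is not by itself an active enhancer, and the gene nearest to it need not be the gene it acts on.

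The distance from gene ends did not keep all these peaks away from transcript starts. RefSeq lists start windows (250 bases before to 50 bases after a start) also for start sites inside genes and for non-coding RNAs. Of the 2102 R848-only distal peaks outside chromosome 18, for which no windows were used, 118 (5.61%, 95% Wilson interval 4.71% to 6.68%) overlapped such a window. In 79 of them it was a start of the protein-coding gene that held the summit, and in the other 39 it was the start of a long non-coding RNA. The median distance from summit to start was 99 bp, and 104 of the 118 lay within 250 bp. Seen from the windows, 1.09% of 13246 windows away from gene ends were overlapped by an R848-only distal peak.

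The parts of these windows that lay inside the peak are printed for the 5 strongest such peaks, for starts of genes in the gene lists used here, and for non-coding starts whose nearest gene is in those lists. The sequence is that of RefSeq on GRCm38.p6, read 5′ to 3′ along the transcript, and the sets were chosen after the values were seen. Capitals mark matches to the 10 motifs searched on both strands. These were AP-1 (TGANTCA), NF-kB (GGANNTTCC, or GGG, any 2 bases, TT, any base and CC), PU.1 (GAGGAAGT), C/EBP (TTGCNNAA), the interferon-stimulated response element ISRE (GAAA, any 2 bases and GAAA), CTCF (CC, any 3 bases, AG, any base and GGGC), RUNX (TGTGGT), the cAMP response element CRE (TGACGTCA), STAT (TTCNNNGAA) and the E-box (CACGTG). The 2 NF-kB spellings can cover the same site. A match is a stretch of letters and not a bound site.

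The strongest R848-only distal peak over a start lay at an internal start of Oma1, which encodes a mitochondrial protease (chr4:103313596-103313895, plus strand). It had a fold of 9.78 over the background of its library and 26 tags, and the nearest untreated peak, of 5 tags, was 110 bp away. The next were at Adk, the adenosine kinase gene (chr14:21075902-21076201, plus strand), with a fold of 9.32, and Hnrnph1, which encodes an RNA-binding splicing regulator (chr11:50377428-50377727, plus strand), with a fold of 8.76. The non-coding RNA gene Gm33628 (chr12:108758142-108758325, minus strand) followed with 8.39 and Nudt16, which encodes a nucleotide hydrolase (chr9:105131756-105132055, minus strand), with 8.27.
Oma1: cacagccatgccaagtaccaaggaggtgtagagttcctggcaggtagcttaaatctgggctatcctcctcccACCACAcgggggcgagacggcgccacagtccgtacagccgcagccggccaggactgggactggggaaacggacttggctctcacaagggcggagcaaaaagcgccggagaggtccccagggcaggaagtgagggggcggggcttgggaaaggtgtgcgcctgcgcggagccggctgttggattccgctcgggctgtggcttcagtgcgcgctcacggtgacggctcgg
Adk: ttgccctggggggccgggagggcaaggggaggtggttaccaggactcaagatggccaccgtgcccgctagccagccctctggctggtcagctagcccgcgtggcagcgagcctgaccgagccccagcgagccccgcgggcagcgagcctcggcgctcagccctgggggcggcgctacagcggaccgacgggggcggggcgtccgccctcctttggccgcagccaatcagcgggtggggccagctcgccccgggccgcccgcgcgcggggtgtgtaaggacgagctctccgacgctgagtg
Hnrnph1: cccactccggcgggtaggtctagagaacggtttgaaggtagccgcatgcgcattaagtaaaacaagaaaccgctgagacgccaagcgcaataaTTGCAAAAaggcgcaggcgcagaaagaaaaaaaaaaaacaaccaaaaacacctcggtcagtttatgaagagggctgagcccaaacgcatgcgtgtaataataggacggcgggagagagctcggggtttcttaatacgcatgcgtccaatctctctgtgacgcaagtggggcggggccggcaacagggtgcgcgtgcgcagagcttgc
Gm33628: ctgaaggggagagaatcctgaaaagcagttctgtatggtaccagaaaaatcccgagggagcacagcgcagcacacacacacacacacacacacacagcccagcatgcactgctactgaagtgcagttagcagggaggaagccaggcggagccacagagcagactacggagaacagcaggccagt
Nudt16: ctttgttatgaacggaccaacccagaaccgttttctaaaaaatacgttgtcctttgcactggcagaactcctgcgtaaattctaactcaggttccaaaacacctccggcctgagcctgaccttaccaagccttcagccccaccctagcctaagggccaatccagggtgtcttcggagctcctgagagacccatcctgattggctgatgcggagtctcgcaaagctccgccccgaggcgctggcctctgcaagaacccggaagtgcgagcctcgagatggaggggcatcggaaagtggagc

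Among the genes of the lists, an internal start of Nfkb2, which encodes the p100 precursor of the NF-kB subunit p52, was covered (chr19:46305499-46305744, plus strand) by a peak with a fold of 4.30 and 15 tags whose summit lay 2 bp from the start. An untreated peak of 10 tags lay 754 bp away. Its sequence held a stretch that matched both spellings of the NF-kB motif. The Egr2 start, of an immediate early zinc finger factor (chr10:67537619-67537849, plus strand), lay under a peak with a fold of 4.75 and 14 tags, 53123 bp from the nearest untreated peak. A start of Runx1, a transcription factor of blood cells (chr16:92697280-92697579, minus strand), lay under a peak with a fold of 5.09 and 11 tags.
Nfkb2: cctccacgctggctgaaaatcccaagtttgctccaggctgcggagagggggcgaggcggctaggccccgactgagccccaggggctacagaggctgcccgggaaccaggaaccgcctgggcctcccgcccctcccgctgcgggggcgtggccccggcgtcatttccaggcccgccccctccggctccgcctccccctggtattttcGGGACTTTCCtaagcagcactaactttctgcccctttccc
Egr2: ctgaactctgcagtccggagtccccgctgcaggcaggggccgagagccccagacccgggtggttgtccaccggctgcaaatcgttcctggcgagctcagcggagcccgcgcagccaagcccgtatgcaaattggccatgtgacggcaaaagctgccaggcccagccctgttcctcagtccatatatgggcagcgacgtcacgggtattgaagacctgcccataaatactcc
Runx1: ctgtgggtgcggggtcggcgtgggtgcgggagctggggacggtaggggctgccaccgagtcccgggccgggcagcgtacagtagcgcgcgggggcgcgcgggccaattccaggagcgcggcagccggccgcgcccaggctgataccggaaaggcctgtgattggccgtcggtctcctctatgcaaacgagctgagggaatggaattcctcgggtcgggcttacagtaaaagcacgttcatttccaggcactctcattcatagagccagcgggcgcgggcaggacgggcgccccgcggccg

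The starts at Itgav, an integrin subunit gene (chr2:83724186-83724446, plus strand), and Prkar1a, a regulatory subunit gene of the cAMP-dependent kinase (chr11:109650760-109650998, plus strand), lay under peaks with a fold of 5.51 and 12 tags each. The Prkar1a sequence held a CRE match and the Itgav sequence a PU.1 match. Of the non-coding starts, D730003I15Rik (chr1:191224232-191224503, plus strand) held an AP-1 and an E-box match. It lay under a peak with a fold of 5.51 and 12 tags. The summit of that peak was 41186 bp from Atf3, a stress-induced transcription factor gene. Gm9530 (chr1:155083215-155083514, minus strand) held none of the motifs. It lay under a peak with a fold of 4.37 (4.365 before rounding) and 10 tags. The summit there was 13016 bp from Ier5, an immediate early gene.
Itgav: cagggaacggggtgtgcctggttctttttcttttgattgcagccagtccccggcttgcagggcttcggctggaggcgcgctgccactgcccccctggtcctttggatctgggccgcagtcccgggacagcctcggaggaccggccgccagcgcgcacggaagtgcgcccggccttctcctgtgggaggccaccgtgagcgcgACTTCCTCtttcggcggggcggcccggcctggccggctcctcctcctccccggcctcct
Prkar1a: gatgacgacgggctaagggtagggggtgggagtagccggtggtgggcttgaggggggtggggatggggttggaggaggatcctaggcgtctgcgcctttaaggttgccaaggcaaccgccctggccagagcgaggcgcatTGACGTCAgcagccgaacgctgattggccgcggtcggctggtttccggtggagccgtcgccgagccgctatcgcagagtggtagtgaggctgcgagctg
D730003I15Rik: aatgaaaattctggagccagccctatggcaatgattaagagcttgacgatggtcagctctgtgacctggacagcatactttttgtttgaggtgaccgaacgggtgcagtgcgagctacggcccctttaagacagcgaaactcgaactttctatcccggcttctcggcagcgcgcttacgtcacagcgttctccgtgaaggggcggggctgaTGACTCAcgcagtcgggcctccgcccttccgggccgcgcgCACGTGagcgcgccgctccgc
Gm9530: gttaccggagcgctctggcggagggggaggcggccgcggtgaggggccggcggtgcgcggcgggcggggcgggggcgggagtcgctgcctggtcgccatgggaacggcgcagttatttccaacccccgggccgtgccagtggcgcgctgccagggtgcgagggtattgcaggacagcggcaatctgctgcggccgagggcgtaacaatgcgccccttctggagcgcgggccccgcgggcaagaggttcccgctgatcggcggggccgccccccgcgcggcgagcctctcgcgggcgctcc

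In the whole 300-base windows, the CRE was found at 9 of the 118 starts under R848-only distal peaks (7.63%, 4.06% to 13.9%). It was found at 7 of 375 starts under strong distal R848 peaks present in both lists (1.87%, 0.907% to 3.80%) and in 1.79% of all 32851 windows. Under strong R848-only peaks at gene ends it was in 32 of 736 windows (4.35%, 3.10% to 6.07%). The 9 starts included Prkar1a, Tmem219, Shisa5, Ap2b1 and Atad2b, and 4 were of long non-coding RNAs, Snhg15 among them. AP-1 matches lay at 12 starts (10.2%, 5.91% to 16.9%), against 5.33% (3.48% to 8.09%) for peaks in both lists and 7.81% of all windows, and 8 of the 12 were starts of long non-coding RNAs. NF-kB matches lay at 10 starts (8.47%, 4.67% to 14.9%), against 11.2% (8.39% to 14.8%) for peaks in both lists and 8.49% of all windows. Of the 10 motifs, the CRE was the single motif whose intervals did not overlap between R848-only distal peaks and peaks in both lists, and it was picked out after all 10 had been seen. The windows under R848-only distal peaks had a median observed-to-expected CpG ratio of 0.718, against 0.810 under peaks in both lists and 0.384 over all windows.

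**Figure D1:**
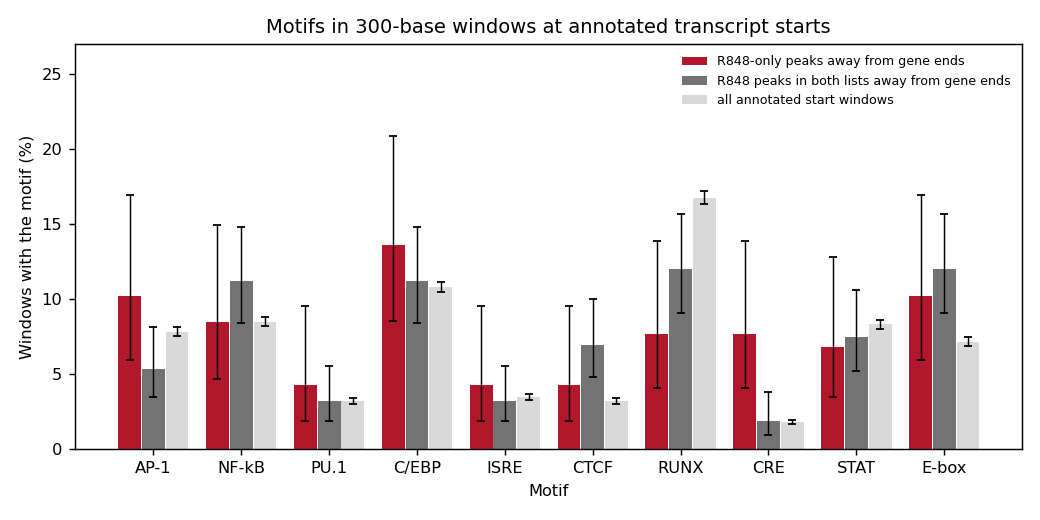
Share of 300-base start windows (y axis, percent) that held each of the 10 motifs (x axis), for windows under strong R848-only distal peaks (118), under strong distal R848 peaks in both lists (375) and for all windows (32851). Bars are shares and error bars 95% Wilson intervals. The CRE is in 7.63% of the first set, 1.87% of the second and 1.79% of the third, while the intervals of the other motifs overlap between the first and second set.

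The whole data set bears on these peaks as follows. The genome-wide background recovered from the deposited values was 1.36 tags in the R848 and 0.968 tags in the untreated library, a ratio of 1.40. At that background a peak needed 5 tags in the R848 list and 4 tags in the untreated list. On chromosomes 1 to 19, 9513 R848 and 10431 untreated peaks reached a −log10 q of 3. The libraries stood apart on the sex chromosomes, which were not used for the peaks described here. The R848 list held 820 peaks on X and the untreated list 4556. Strong distal peaks without a counterpart numbered 31 in the R848 list and 428 in the untreated list on X, and 3 and 113 on Y. Whether this difference between the libraries plays a part in the results was not tested. Of the macrophage markers Spi1, Csf1r, Adgre1, Cd68, Mertk and Itgam, 5 of 6 had a peak within 1 kb of a gene end in the R848 list and 3 of 6 in the untreated list. Such a peak was found at 1 of 5 neutrophil markers in each list. At lymphocyte markers it was found at 1 of 7 (Cd79a) in the R848 list and 0 in the untreated list. Stromal and endothelial markers had one at 0 of 5 in either list. Of all genes on chromosomes 1 to 19, 26.5% had an R848 peak in both lists within 1 kb of an end. For R848-only peaks this was 17.3% and for untreated-only peaks 7.86%, and a gene can count under more than 1 of these. The marker counts were not tested against these shares.

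Strong R848 peaks away from gene ends were missing from the untreated list more often than those at gene ends. Of 4615 strong R848 peaks away from gene ends, 47.3% were R848-only, against 21.6% of 4898 at gene ends and 34.1% of all 9513. The share was lower in stronger peaks, and the intervals of the 2 places did not overlap in 4 of 5 strength classes. At a −log10 q of 3 to 4 it was 64.9% (62.3% to 67.4%) away from gene ends and 49.2% (45.4% to 53.1%) at them. At 10 to 20 it was 21.0% (17.9% to 24.5%) and 6.81% (5.57% to 8.31%). At 20 and over the intervals overlapped, with 5 of 321 peaks away from gene ends and 4 of 608 at them. Of the weaker distal R848 peaks, below a −log10 q of 3, 83.1% were R848-only. In the other direction, 69.6% of 7933 strong distal untreated peaks had no R848 counterpart, against 5.36% of 2498 at gene ends.

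**Figure D2:**
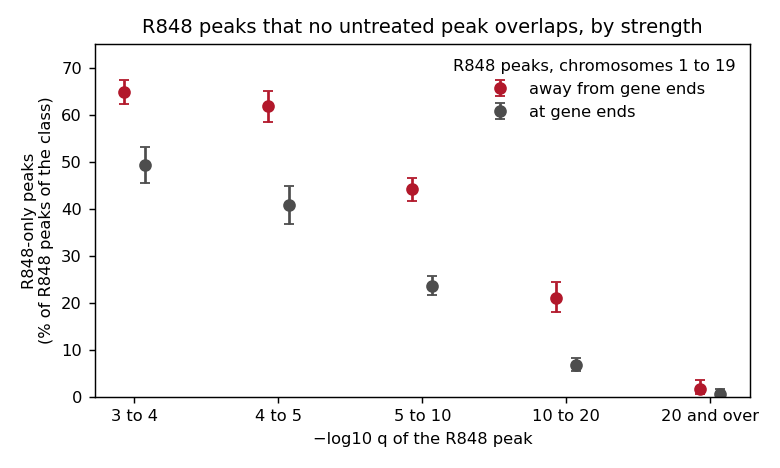
Share of R848 peaks on chromosomes 1 to 19 that no untreated peak overlapped (y axis, percent), by the −log10 q of the R848 peak (x axis), for peaks away from and at gene ends. Points are shares and bars 95% Wilson intervals. The share is 64.9% and 49.2% in the weakest class and under 2% in the strongest.

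These peaks were chosen by their q value, the lack of an overlapping untreated peak and their distance from gene ends, so their strength and their absence from the untreated list are descriptions. The fold ranged from 1.56 to 11.2 with a median of 5.085 (quartiles 4.66 and 5.51), the pileup from 10 to 566 tags with a median of 11, and the width from 200 to 1218 bp with a median of 336 bp. Strong distal R848 peaks in both lists had a median fold of 5.88, 15 tags (solved for 2390 of 2430) and 430.5 bp. Of the R848-only distal peaks, 760 had a −log10 q below 3.5. The 5 peaks just inside had a −log10 q from 3.01, folds of 2.198 to 4.04 and 12 to 43 tags. The 5 just outside reached 2.99, with folds of 3.205 to 4.33 and 10 to 19 tags. Divided by the background ratio of 1.40, the weakest pileup of 10 tags corresponds to 7.12 tags at the depth of the untreated library. This assumes the same fragment extension in each library. A local background above 3 tags was found at 50 peaks and above 10 tags at 8. The highest, 363 tags, was under the peak with 566 tags and a fold of 1.56.

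Untreated peaks were often near without overlapping. The nearest untreated peak was a median of 12411 bp away, and it lay within 10 kb for 963 peaks (44.1%) and within 500 bp for 111 (5.08%). Those 111 untreated neighbours held 4 to 366 tags with a median of 7. At Gpr65, a proton-sensing receptor gene, the R848-only distal peak had a fold of 10.7 and 31 tags, and an untreated peak of 5 tags lay 278 bp away. At Nfkbia, which encodes the inhibitor IkBα, it had 13 tags, and an untreated peak of 5 tags lay 47 bp away. At Zfp36, which encodes an mRNA-decay protein, it had 26 tags but a fold of 5.13, and the untreated peak 674 bp away had 7 tags.

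R848-only distal peaks lay inside genes about as often as peaks in both lists, less often over transcript starts, and nearer to genes than untreated-only peaks. Of the R848-only distal peaks, 50.6% (48.5% to 52.7%) had their summit inside a protein-coding gene, against 49.5% (47.5% to 51.5%) of strong distal R848 peaks in both lists and 34.6% (33.4% to 35.9%) of strong distal untreated-only peaks. The gene table holds no exons, so exons and introns were not told apart. The median distance to the nearest gene end was 21455 bp, against 19095 bp for peaks in both lists and 65932 bp for untreated-only peaks. No gene end lay within 100 kb of 14.9% of R848-only distal peaks, against 18.7% of peaks in both lists and 41.6% of untreated-only peaks. Transcript start windows were overlapped by 5.61% of R848-only distal peaks, against 16.0% (14.6% to 17.6%) of peaks in both lists and 0.339% (0.215% to 0.536%) of untreated-only peaks. By chromosome, the share of strong distal R848 peaks that were R848-only ranged from 41.1% on chromosome 9 (104 R848-only peaks) to 52.6% on chromosome 1 (200 R848-only peaks).

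**Figure D3:**
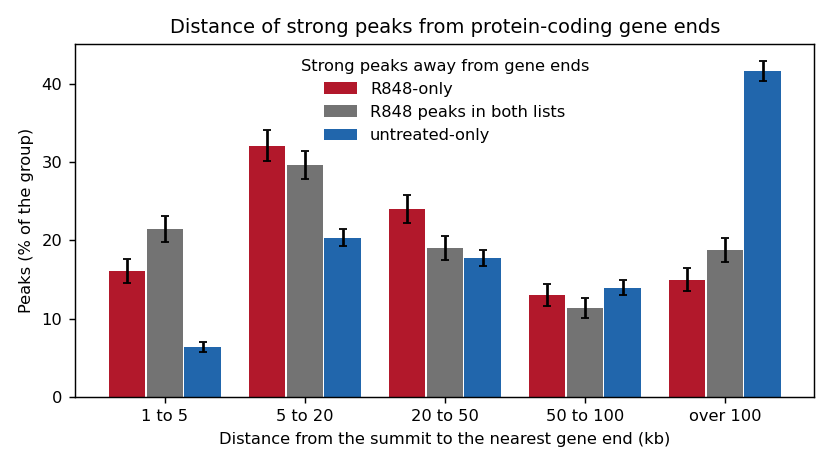
Distance from the summit to the nearest protein-coding gene end (x axis, kb) for strong distal peaks, as a share of each group (y axis, percent). Bars are the 2185 R848-only peaks, the 2430 R848 peaks in both lists and the 5518 untreated-only peaks, with 95% Wilson intervals. The class over 100 kb holds 14.9% of R848-only, 18.7% of shared and 41.6% of untreated-only peaks.

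The peaks were mostly single. Of 2185, 169 (7.735%, 6.69% to 8.93%) had another R848-only distal peak within 10 kb, against 12.1% (10.9% to 13.5%) of strong distal R848 peaks in both lists that had another of their kind. They formed 77 pairs and 5 groups of 3, and no larger group. The groups of 3 lay inside Fyb, an adaptor gene of integrin and receptor signalling (chromosome 15, 6556989 to 6569552), inside Il17ra, the gene of an interleukin-17 receptor subunit (chromosome 6, 120470607 to 120479695), inside Macrod2 (chromosome 2, 140783322 to 140794497), near Lpp (chromosome 16, 25052896 to 25059332) and beyond Cd47 (chromosome 16, 49938999 to 49952229). A peak in both lists lay within 10 kb of 17.8% of R848-only distal peaks and an untreated-only peak within 10 kb of 32.8% (30.8% to 34.8%). An untreated-only peak was as near for 33.7% (31.9% to 35.65%) of strong distal R848 peaks in both lists and for 28.3% (25.7% to 31.1%) of strong R848-only peaks at gene ends.

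Each peak was assigned to the protein-coding gene with the nearest end within 100 kb. This placed 1859 peaks at 1598 genes, 7.73% of the 20665 protein-coding genes on chromosomes 1 to 19. A single peak lay at 1386 genes, 2 peaks at 171, 3 at 36, and 4 or more at 5. Cd47, which encodes the surface protein that restrains phagocytosis, had 6, the highest number. These had folds of 4.09 to 5.09 and 10 to 16 tags, and 1 lay inside the gene while the other 5 lay 26590 to 69865 bp beyond its end. Also nearest to Cd47 were 2 further R848-only peaks, 2 R848 peaks in both lists and 2 untreated-only peaks. Pla2g4a, which encodes the phospholipase that frees arachidonic acid, had 5, all inside the gene, with folds of 4.06 to 5.72 and 10 to 18 tags, and no R848 peak in both lists. A peak among them lay 357 bp from an untreated peak of 8 tags.

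Il17ra had 4, with folds of 4.68 to 6.25 and 12 to 16 tags, and 3 of them were inside the gene. Edn1, which encodes the vasoconstrictor peptide endothelin 1, had 4, with folds of 4.66 to 5.93 and 10 to 17 tags, all outside the gene and 20764 to 85023 bp from its nearer end. Wwox had 4, with folds of 4.66 to 5.72, beside 11 untreated-only peaks. A further 36 genes had 3 each, and the 7 of them with the highest single fold were Rapgef4, a cAMP-activated exchange factor gene, with a highest fold of 9.75, Arrdc4, an arrestin-domain gene, with 9.60, Usp25, a deubiquitinase gene, with 8.91 (8.915 before rounding), Pttg1, the securin gene, with 8.67, Fyb with 8.60, Rin2, which encodes an activator of the endocytic GTPase Rab5, with 8.05, and Syk, a kinase gene of Fc and C-type lectin receptor signalling, with 7.48.

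**Figure D4:**
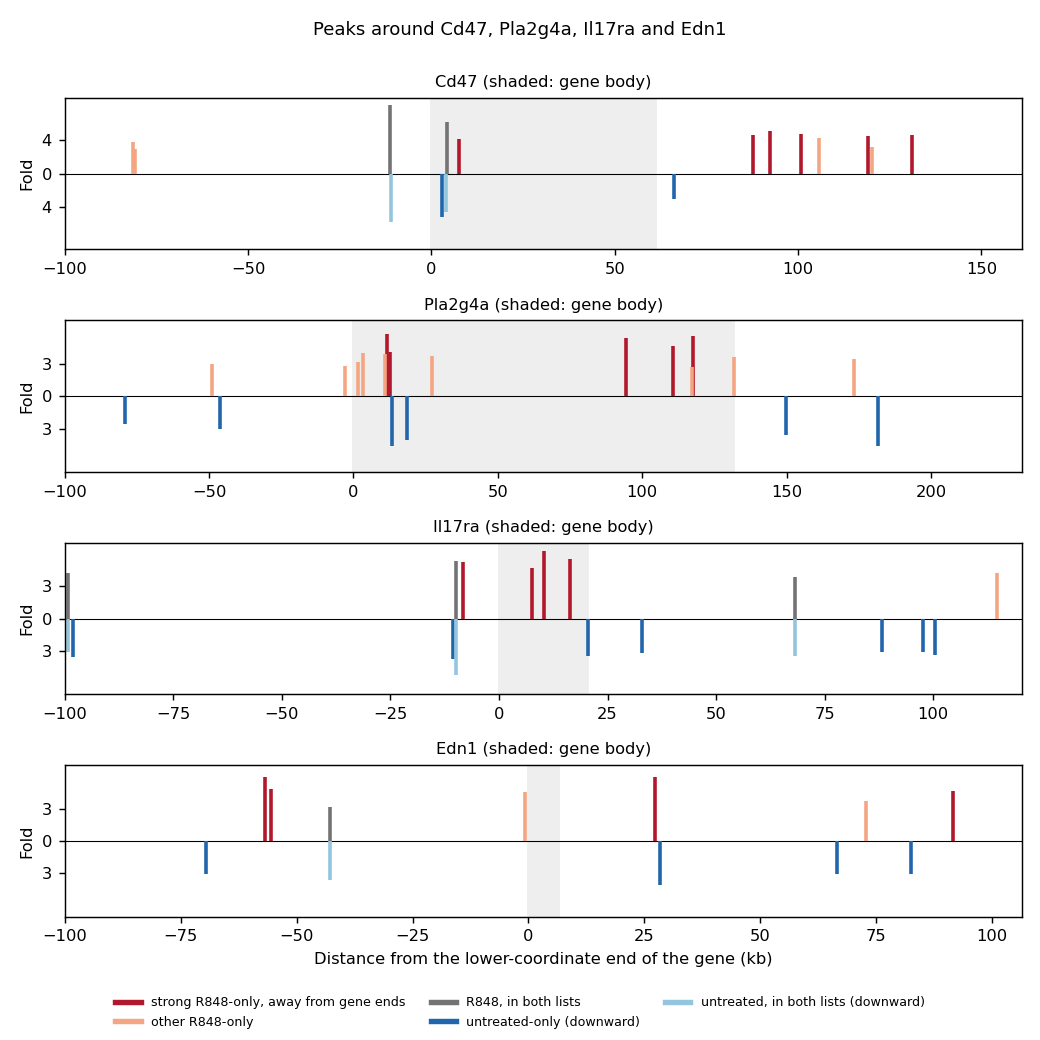
Peaks within 100 kb of Cd47, Pla2g4a, Il17ra and Edn1, by distance from the lower-coordinate end of the gene (x axis, kb), with the gene shaded. Lines are peaks and their height is the fold within the peak's own list (y axis); R848 peaks point up and untreated peaks down. The R848-only distal peaks of Pla2g4a lie inside the gene and those of Edn1 outside it.

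By strength, the 15 highest folds ran from 9.25 to 11.2, with 21 to 42 tags. They lay at Etv1, an ETS factor gene, Plekhg1, Gpr65, Tasp1, a protease gene, Tmem260, Adora2a, an adenosine receptor gene, Osbpl10, Oma1, Rapgef4, Arrdc4, Nceh1, a cholesterol ester hydrolase gene of macrophages, Cop1, a ubiquitin ligase gene, Adk and Olfr432. The remaining peak, with a fold of 10.4 and 33 tags, spanned 139885979 to 139886397 on chromosome 3, 175875 bp from any gene end. The untreated peaks nearest to the 15 held 4 to 8 tags. The nearest was 35 bp from the Adk peak, where the untreated peak had 4 tags and the R848 peak 21, and the farthest was 42277 bp from the Plekhg1 peak.

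Genes of the macrophage response were compared by how many had an R848-only distal peak. All gene lists used here were chosen with earlier results of these data known. Their shares and intervals are therefore descriptions and not a test of enrichment. The combined lists of primary response genes, NF-kB genes, inflammatory cytokines and mediators, and chemokines had an R848-only distal peak at 35 of 118 genes (29.7%, 22.2% to 38.4%), against 7.73% of all genes. The same genes were also more often nearest to a strong distal peak in both lists, at 24.6%, against 8.25% of all genes. A strong distal untreated-only peak was nearest to 19 of the 118 (16.1%), against 13.0% of all genes, a difference that was not tested. The median fold of their 55 R848-only distal peaks was 5.086, against 5.085 for all 1859 assigned peaks. The share of strong distal R848 peaks at these genes that were R848-only was 56.1% of 98 (46.2% to 65.5%), an interval that holds the 48.5% of 3834 at all genes. By list it was 46.15% of 39 peaks (31.6% to 61.4%) for primary response genes and 45.45% of 22 (26.9% to 65.3%) for NF-kB genes. For cytokines and mediators it was 76.7% of 30, and for chemokines 57.1% of 7 (25.05% to 84.2%).

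Among inflammatory cytokines and mediators, 13 of 34 genes (38.2%, 23.9% to 55.0%) had an R848-only distal peak, while 5 of 34 were nearest to a strong distal peak in both lists. Of the 30 strong distal R848 peaks at these genes, 23 were R848-only (76.7%, 59.1% to 88.2%). Pla2g4a held 5 of the 23 and Edn1 held 4. The interval treats peaks at the same gene as independent, which they need not be. At Il1b, which encodes a pro-inflammatory cytokine, the 2 peaks had folds of 7.63 and 5.26, and the nearest untreated peaks were 34721 and 65323 bp away. At Inhba, an activin subunit gene, the peaks had folds of 7.55 and 5.22 and lay 74158 and 96354 bp from the gene. Untreated peaks lay 1999 and 3619 bp from them, and 11 untreated-only peaks had Inhba as their nearest gene. Ptgs2, the inducible cyclooxygenase gene, had peaks with folds of 5.51 and 5.42, both 12 tags, 43260 and 37072 bp away. Il12b and Il10, cytokine genes with opposite roles in inflammation, had 1 each, with folds of 7.87 and 7.21 and 19 and 16 tags. The nearest untreated peaks were 3225 and 12006 bp away, and 8 untreated-only peaks had Il12b as their nearest gene. Il33, an alarmin gene, had 1 of 14 tags (fold 6.15) within its body, 89341 bp from any untreated peak. Ptges, which encodes a prostaglandin E synthase, had 1 of 16 tags (fold 4.23) inside the gene.

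Of 35 primary response genes, 10 (28.6%, 16.3% to 45.0%) had an R848-only distal peak and 13 were nearest to a strong distal peak in both lists. Klf6, a zinc finger factor gene, had 3, with folds of 6.48, 6.36 and 4.72, 23949 to 75795 bp from the gene. Rgs1, which encodes a regulator of G-protein signalling, had 3 (folds 5.94, 5.34 and 4.92), and Ier5 had 3 (5.33, 4.44 and 4.37, the last 4.365 before rounding). Atf3 and Trib1, a pseudokinase gene, had 2 each. Of 28 NF-kB genes, 8 (28.6%, 15.2% to 47.1%) had one, as many as were nearest to a strong distal peak in both lists. The strongest was at Nfkbiz, which encodes the nuclear protein IkBζ, with a fold of 7.66, 20 tags and a width of 1032 bp, 56853 bp from the gene. Ripk2, the kinase gene of NOD receptor signalling, and Zc3h12a, an mRNA-decay nuclease gene, had 2 each, and Bcl3, Nfkbia and Traf1 had 1 each. Ripk2 was also the nearest gene of 13 untreated-only peaks.

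Chemokine genes had an R848-only distal peak at 4 of 21 (19.05%, 7.67% to 40.0%), namely Cxcl1 (fold 5.60), Cxcl5 (5.09), Ccl9 (4.66) and Ccl2 (4.48), with 1 each. The Ccl9 peak, of 10 tags, lay 62 bp from an untreated peak of 12 tags. Interferon response genes had one at 3 of 30 (10%, 3.46% to 25.6%), at Ifnb1 (fold 5.51), Rsad2 and Herc6 (5.09 each). The share of all genes with one was 7.73%, which lies within the intervals of the chemokine and interferon lists. Toll-like receptor signalling genes had one at 7 of 29 (24.1%, 12.2% to 42.1%). There Ikbkb, an IkB kinase gene, had 2 inside the gene, and the strongest was inside Peli2, a ubiquitin ligase gene, with a fold of 9.06 and 24 tags.

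The list of MAP kinase phosphatases and cAMP genes had an R848-only distal peak at 8 of 20 genes (40.0%, 21.9% to 61.3%), while 5 were nearest to a strong distal peak in both lists and 7 to a strong distal untreated-only peak. Of all genes, 7.73% had an R848-only distal peak, and 8.25% were nearest to a strong distal peak in both lists. A strong distal untreated-only peak was nearest to 13.0% of all genes. The list thus lay above all genes for each of these kinds of peak, not for R848-only peaks alone. These differences were not tested. For the R848-only distal peaks, the fold was 10.7 at Gpr65, 10.1 at Adora2a and 8.91 at Pde4b, a cAMP phosphodiesterase gene. The Adora2a peak, of 42 tags, lay 9115 bp from an untreated peak of 4 tags. The Pde4b peak, of 30 tags, had a second of 16 tags beside it, and no untreated peak lay within 79936 bp of either. Ptger2, a prostaglandin E receptor gene, had 2, and Dusp10, a MAP kinase phosphatase gene, and Creb5, a CREB-family factor gene, had 1 each with a fold of 6.36.

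Macrophage identity genes had one at 9 of 30 (30.0%, 16.7% to 47.9%), equal to the 9 nearest to a strong distal peak in both lists and to the 9 nearest to a strong distal untreated-only peak (13.0% of all genes). Cx3cr1, the fractalkine receptor gene, had 3, with folds of 4.75 (4.745 before rounding) to 5.09 and no untreated peak within 22709 bp. Spi1, the gene of PU.1, had 2 inside the gene, with folds of 5.63 and 5.09, and Cd36, Fcgr3, Runx1 and Msr1 had 2 each. Cd36 and Msr1 also had 10 untreated-only peaks each. Adhesion and co-stimulation genes had one at 4 of 20 (20.0%, 8.07% to 41.6%), at Cd44, Cd69, Itgav and Cd86. Glycolysis genes had one at 2 of 19 (10.5%, 2.94% to 31.4%), Hk2 and Slc16a3, while 6 of 19 were nearest to a strong distal peak in both lists, and 2 of their 10 strong distal R848 peaks were R848-only. Housekeeping genes had one at 3 of 24 (12.5%, 4.34% to 31.0%). Markers of T, NK and B cells had one at 1 of 24 (4.17%, 0.739% to 20.2%). Neutrophil markers had one at 0 of 17 (Wilson upper bound 18.4%), and stromal and endothelial markers at 2 of 20 (10%, 2.79% to 30.1%). The share of all genes with an R848-only distal peak was 7.73%. It lies within the intervals of the glycolysis, housekeeping, T, NK and B cell, neutrophil and stromal lists. It lies below those of the macrophage identity and adhesion lists.

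**Figure D5:**
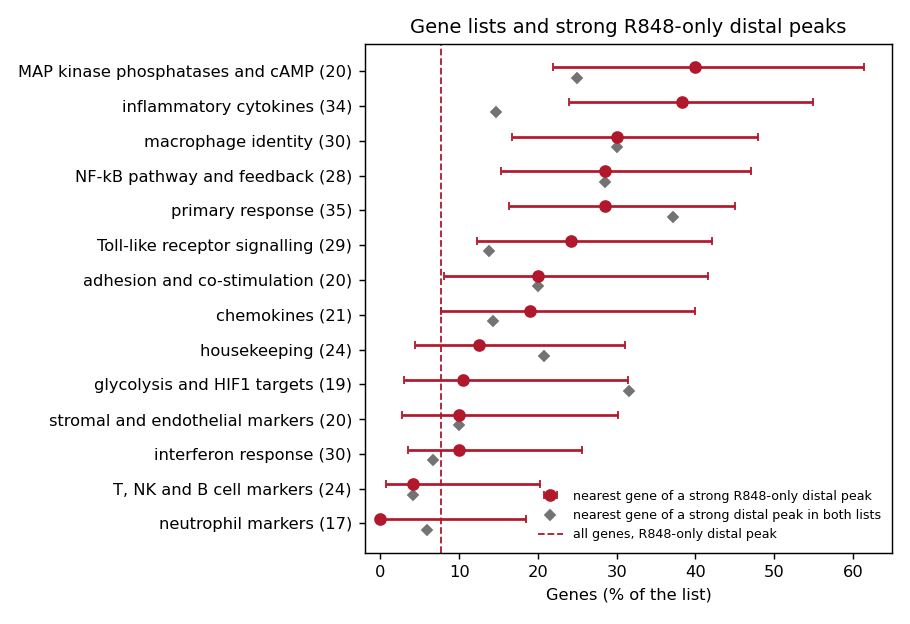
Share of the genes of each list (x axis, percent; number of genes in brackets) that were the nearest gene of a strong R848-only distal peak, with 95% Wilson intervals, and of a strong distal peak in both lists (diamonds). The dashed line is the 7.73% of all genes with an R848-only distal peak. The lists were chosen with earlier results of these data known. The list labelled inflammatory cytokines, which also holds other mediators such as Pla2g4a, Ptgs2 and Edn1, stands at 38.2% for R848-only peaks and 14.7% for peaks in both lists.

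The state of the gene ends was also described. It is not independent of the choice of the distal peaks, since the same untreated list and the same 1 kb bound define both, and it is given without a test. Of the 1598 genes with an R848-only distal peak, 363 (22.7%, 20.7% to 24.8%) also had an R848-only peak within 1 kb of an end. This was so for 18.1% (16.1% to 20.2%) of 1338 genes nearest to a strong distal peak in both lists alone, and for 17.3% of all genes. Strong R848-only peaks at an end were found at 6.88% (5.74% to 8.23%) of genes with an R848-only distal peak and at 5.88% (5.57% to 6.21%) of all genes, with overlapping intervals. R848 peaks in both lists lay at an end of 31.5% (29.2% to 33.8%) of genes with an R848-only distal peak and of 26.5% (25.9% to 27.1%) of all genes. Untreated-only peaks lay at an end of 8.89% (7.59% to 10.4%) and 7.86% (7.50% to 8.23%). An R848-only peak at an end accompanied the distal ones at Pla2g4a, Edn1, Ptgs2, Nfkbiz, Zc3h12a, Nfkbia, Ccl2, Ccl9 and Rsad2. The same held for Rgs1, Ikbkb, Herc6, Runx1, Cd44 and Cd69, for the housekeeping gene Rab7 and for the lymphocyte marker Klrb1c. Nfkbia also had an R848 peak in both lists at an end, and Rgs1 an untreated-only peak. No R848-only peak was found at an end of Il1b, Inhba, Il12b, Cxcl1, Cxcl5, Ifnb1, Gpr65, Adora2a, Pde4b or Cx3cr1. Of these, Il12b and Adora2a had an untreated-only peak at an end.

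MicroRNA genes lie outside the protein-coding table. A set of microRNAs known from Toll-like receptor responses was looked at after the values were seen, and 7 of its 10 hairpins on chromosomes 1 to 19 had an R848-only distal peak within 100 kb. Of all 917 such hairpins 23.2% had one, and a strong distal peak in both lists lay within 100 kb of 5 of the 10 and of 28.7% of all. Hairpins in a cluster share their peaks. The mature sequences of the strands discussed are given by RefSeq as follows, with the seed (bases 2 to 8) in capitals.
mmu-miR-146a-5p: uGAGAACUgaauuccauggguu
mmu-miR-146b-5p: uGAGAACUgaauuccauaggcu
mmu-miR-155-5p: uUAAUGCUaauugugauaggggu
mmu-miR-21a-5p: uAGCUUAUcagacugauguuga
mmu-miR-132-3p: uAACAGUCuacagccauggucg
mmu-miR-125a-5p: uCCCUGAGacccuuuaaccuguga

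The first pair of these share the seed GAGAACU and are known as feedback regulators that target signalling proteins of the receptor. The hairpin of miR-146a (Mir146, chromosome 11, 43374397 to 43374461) had 3 R848-only distal peaks beside it and no strong distal peak in both lists within 100 kb. They lay 10524, 20840 and 36981 bp away with folds of 8.67, 5.93 and 6.78 and 25, 15 and 15 tags, and the nearest protein-coding gene was Pttg1. The untreated peaks nearest to them were 14374 bp or more away. The hairpin of miR-146b had the peak at the internal Nfkb2 start 36887 bp away. The hairpin of miR-155, a microRNA that promotes inflammation (Mir155, chromosome 16, 84714140 to 84714204), had peaks 86685 and 92323 bp away with folds of 6.36 and 6.50. Peaks also lay 34456 and 40116 bp from Mir21a, 68026 and 79290 bp from Mir147, 36349 bp from Mir132, and 34403 to 79126 bp from Mir125a, the last at Has1, a hyaluronan synthase gene, and the formyl peptide receptor genes Fpr1 and Fpr2. No R848-only distal peak lay within 100 kb of the 3 hairpins of miR-9.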

How the data were processed

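ATAC-seq libraries of 1 R848-treated and 1 untreated culture had been made with 15 PCR cycles, per the labels' protocols. bcl2fastq 2.19, Bowtie2 2.2.6 and MACS2 2.2.7.1 are listed with build mm10 per the submitters' processing notes. Settings, read totals and handling of duplicates are not stated there. Each deposited list gives, for a summit, the fold over the library's own background, the −log10 p and −log10 q, and a score of 10 times the −log10 p, which was not used. Pileup and background were solved together from the deposited fold and −log10 p, within 0.1%, for 99.9% of peaks in each list.

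Peaks were compared by an overlap of 1 bp. Genes came from the RefSeq table of GRCm38.p6, the primary assembly of mm10, and start windows and microRNAs from RefSeq tables of the same build. Strong distal peaks of the other kinds (in both lists, untreated-only) were chosen with the same bounds. The text names the 12 genes holding most R848-only distal peaks (ties at 3 broken by the highest fold), the genes of the 15 strongest peaks and the leading genes of each list. The members and lists were chosen with earlier results of these data known. Wilson intervals (95%) cover counting error over peaks or genes within these libraries, not variation between cultures. The planned motif shares at the summits needed a genome sequence and were replaced by motifs in start windows. Peak overlap, pileup recovery and motif search were tested on simulated data. Calculations ran in Python 3.11.15 with scipy 1.17.1, numpy 2.4.6 and pandas 2.3.3, and figures were drawn with matplotlib 3.10.9. The alternatives tried were other q bounds, overlap rules, gene-end distances and gene assignments.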

Additional observations from a re-analysis of the deposited data

How the results depend on the processing

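No paired analysis was possible because each group held 1 library. Of 48 recomputed values, 28 stayed within the interval of the reported value (for the number of peaks, within 1.5 times) and 20 did not. With a −log10 q of at least 2 there were 4240 R848-only distal peaks, of which 48.1% lay inside a gene and 10.99% had a neighbour within 10 kb. At least 5 left 812, with 2.71%. The share of all genes with such a peak was 13.2% and 3.12% under these bounds, 7.37% when a gap of up to 500 bp counted as overlap, 8.45% against untreated peaks with a −log10 q of at least 1.3, 7.24% and 6.18% with gene-end distances of 2 and 5 kb, 4.75% with gene ends within 20 kb and 15.9% with every gene within 50 kb. For the response lists it was 40.7% and 15.25% under the q bounds, 21.2% with gene ends within 20 kb and 39.0% with every gene within 50 kb. The ratio of this share to that of all genes was 3.84 as reported and 2.46 to 4.89 under the alternatives. It describes lists that were chosen with earlier results of these data known. Genes with a peak that also had an R848-only peak at an end made up 25.5% against untreated peaks with a −log10 q of at least 1.3 (all genes 19.5%), and 28.6% and 37.9% with gene-end distances of 2 and 5 kb (all genes 22.0% and 31.5%). Leaving out peaks with a local background above 3 tags, chosen after seeing the data, left 2135 peaks and kept all 6 results within their limits. The planned motif shares at peak summits were not run. The depth of 10 to 14 tags in most peaks, and 1 library a group, limit any single site.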
